A study of Oryza sativa with 5 samples.

Results

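Transcript levels of 5 rice genes that make, export and take up deoxymugineic acid, the iron-binding compound that rice roots release, were followed in roots of 5 groups of rice (Oryza sativa) plants. The genes were OsNAAT1, OsDMAS1, TOM1, OsYSL15 and OsYSL2. They were taken by locus identifier, as genes with known roles in this pathway, with earlier results of these data known, and 5 of the 6 identifiers looked up gave 6 transcripts among the 40925 transcripts of 34330 loci in the tables. The remaining identifier, Os02t0306400, is an alternative one for OsNAAT1 and was not analysed here. All roots came from plants at an age of 2 weeks, grown in soil in a greenhouse without stress. Each group was measured in 1 library, so no difference below has a replicate check in these data.

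The first group was nontransgenic (NT) Nipponbare. RCc3::OsNAC6 plants carried the transcription factor gene OsNAC6 behind RCc3, a promoter active in roots, and GOS2::OsNAC6 plants carried it behind GOS2, a promoter active in the whole plant. Both were made in Nipponbare, and which of the independent lines of the study was sequenced is not stated in the labels. NT Hwayoung was the control of nac6, which the study describes as a null mutant with a T-DNA insertion in OsNAC6 in the cultivar Hwayoung. The cultivar therefore differs between the overexpressor tables and the nac6 table.

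Grasses take up iron as a complex with mugineic acids, a strategy distinct from the reduction of iron at the root surface that other plants use. Nicotianamine synthases join molecules of S-adenosylmethionine into nicotianamine, nicotianamine aminotransferase turns this into a keto intermediate, and deoxymugineic acid synthase reduces the intermediate to deoxymugineic acid. The compound is exported into the soil, binds ferric iron, and the complex is taken back into the root by a yellow stripe-like transporter. In rice, OsNAAT1 encodes the aminotransferase, OsDMAS1 the synthase, TOM1 the exporter, OsYSL15 the transporter of the iron complex, and OsYSL2 a transporter of iron and manganese bound to nicotianamine that is known from the phloem. These genes are known to be induced by iron deficiency. The plants here were not described as short of iron.

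The libraries held between 22909719 reads in nac6 and 26838552 in NT (Nipponbare), as recovered from the digits of the deposited values. The targeted gene did not follow the labels. NT (Nipponbare) gave 6215 reads of OsNAC6 (Os01t0884300-01), beside 6050 and 6675 in the libraries labelled RCc3::OsNAC6 and GOS2::OsNAC6. NT (Hwayoung) gave 7600, beside 8215 where nac6 was the label. Its log2 ratios to the control were -0.02 ± 0.03, 0.37 ± 0.03 and 0.31 ± 0.03 (± counting SE), so it was not 2-fold higher in either overexpressor library and not lower in nac6. Every direction below is thus one between libraries by their labels. The study also measured OsNAC6 in these genotypes by RNA gel blot and qRT-PCR, which were not analysed here. The labelled tissue was borne by root genes: the RCc3 gene had 182 to 1151 RPM (reads scaled to the library total) and the silicon transporter gene Lsi1 had 319 to 645 RPM in the 5 libraries. The 55 photosystem, chlorophyll-binding and Rubisco small subunit transcripts together had 37.3 to 59.4 RPM, with 4 to 6 of them at 0. In bulk roots, fewer cells of a type and less RNA per cell cannot be told apart.

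A ratio was taken where the 2 libraries of a table averaged 10 normalized counts or more, and all 6 transcripts met this in all 3 comparisons. In the library labelled RCc3::OsNAC6, 6 of 6 were at least 2-fold higher than in NT (Nipponbare), where 4.47% of all 32487 transcripts were. In that labelled GOS2::OsNAC6, 5 of 6 were at least 2-fold higher, where 1.83% of 31987 transcripts were. The exception was OsNAAT1. In the library labelled nac6, 4 of 6 were at least 2-fold lower than in NT (Hwayoung), where 3.65% of 30767 transcripts were, and 1, OsYSL2, was at least 2-fold higher, where 6.30% were. None was 2-fold lower in either overexpressor library, where 6.03% and 2.00% of all transcripts were. The same NT (Nipponbare) library is the control of both overexpressor tables. OsYSL15 enters these counts as 2 transcripts. Summed by locus, 5 of 5 genes were higher in RCc3::OsNAC6 (1288 of 26644 loci) and 4 in GOS2::OsNAC6 (542 of 26232 loci). In nac6, 3 genes were lower (955 of 25230 loci) and 1 was higher (1800 loci). At a 4-fold threshold, 3 of 6 were higher in RCc3::OsNAC6 (0.766% of all transcripts), 1 in GOS2::OsNAC6 (0.191%) and 1 in nac6 (1.64%), and 3 were lower in nac6 (0.361%). A 2-sided exact binomial test on reads, which compares 2 libraries and not the plants, gave a Benjamini-Hochberg adjusted p under 0.05 for 6, 6 and 5 of the 6, but it did so for 43.0%, 28.2% and 39.5% of all transcripts.

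The median log2 ratio of the 6 transcripts was 2.05, 1.22 and -1.81 in the RCc3::OsNAC6, GOS2::OsNAC6 and nac6 comparisons, beside medians of 0.01, -0.01 and -0.01 over all transcripts. The central 95% of all transcripts lay between -1.52 and 1.24, between -0.93 and 0.91, and between -1.15 and 1.60 in the same order. A ratio here is log2((case + 1)/(control + 1)) of normalized counts within a table, which understates the change of low transcripts. The SE and the 95% intervals cover counting error only, since each group had 1 library. Reads amplified by PCR are not independent molecules, so the intervals may be too narrow, which was not assessed. Where 1 library of a pair was low, the transcript passed the filter through the other library, as OsYSL2 did in all 3 comparisons and TOM1 and OsYSL15-02 did in nac6.

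**Figure D1:**
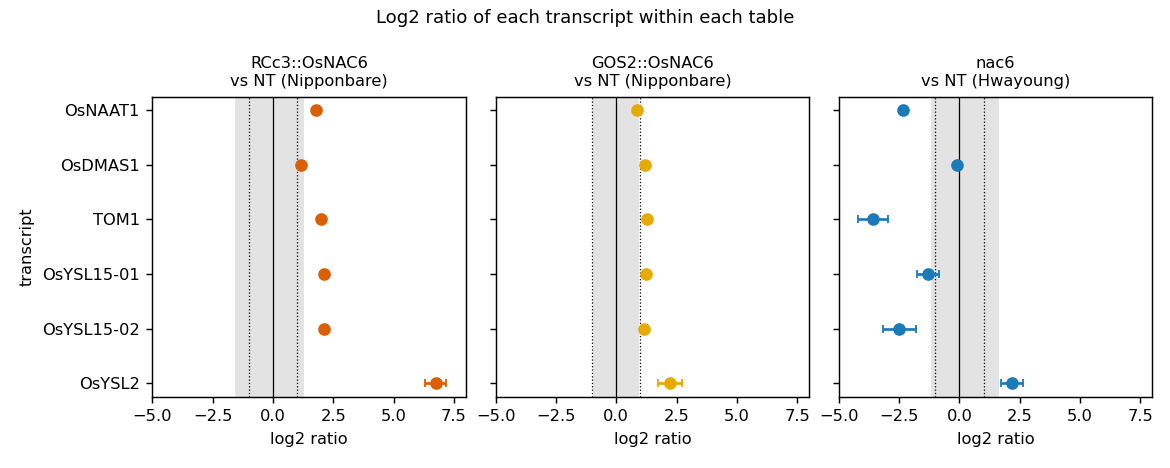
Log2 ratio (horizontal axis) of each of the 6 transcripts within each of the 3 tables, as points with counting-error SE. Grey bands hold the central 95% of all transcripts and dotted lines mark a 2-fold difference. OsYSL2 lies at 6.74 in RCc3::OsNAC6, and in nac6 it is the only transcript to the right of the 2-fold line.

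The nicotianamine aminotransferase transcript OsNAAT1 (Os02t0306401-00, locus Os02t0306401, chromosome 2) stood higher in both overexpressor libraries and lower in nac6. It had 3121 reads (116 RPM) in NT (Nipponbare), 10438 (403 RPM) in RCc3::OsNAC6, 4650 (194 RPM) in GOS2::OsNAC6, 1268 (53.8 RPM) in NT (Hwayoung) and 218 (9.52 RPM) in nac6. The highest library, labelled RCc3::OsNAC6, and the lowest, labelled nac6, lie on opposite sides of both controls. The log2 ratio was 1.76 ± 0.04 for RCc3::OsNAC6, and 335 of 32487 transcripts had a higher one. For GOS2::OsNAC6 it was 0.84 ± 0.04, a fold of 1.79 (1.69 to 1.90), short of the 2-fold threshold. In nac6 it was -2.34 ± 0.14, so that the level was 5.08-fold lower (4.19 to 6.20), and 75 of 30767 transcripts had a lower ratio.

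The deoxymugineic acid synthase transcript OsDMAS1 (Os03t0237100-01, locus Os03t0237100, chromosome 3) was higher in the overexpressor libraries but near its control in nac6. It had 2011 reads (74.9 RPM) in NT (Nipponbare), 4384 (169 RPM) in RCc3::OsNAC6, 3871 (162 RPM) in GOS2::OsNAC6, 832 (35.3 RPM) in NT (Hwayoung) and 670 (29.2 RPM) in nac6. The 2 overexpressor libraries stood close together, above all others. Log2 ratios were 1.14 ± 0.05 and 1.21 ± 0.05, with 1014 and 297 transcripts higher. In nac6 the log2 ratio was -0.12 ± 0.10 and the fold 0.921, with an interval from 0.804 to 1.06, so that a level 5.08-fold lower, as for OsNAAT1, the enzyme before it in the pathway, lies outside the counting interval. Scaling by library totals gave -0.27, still within 2-fold. Whether the ratios of the 2 enzymes differ beyond the spread between plants was not tested, for want of replicates.

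**Figure D2:**
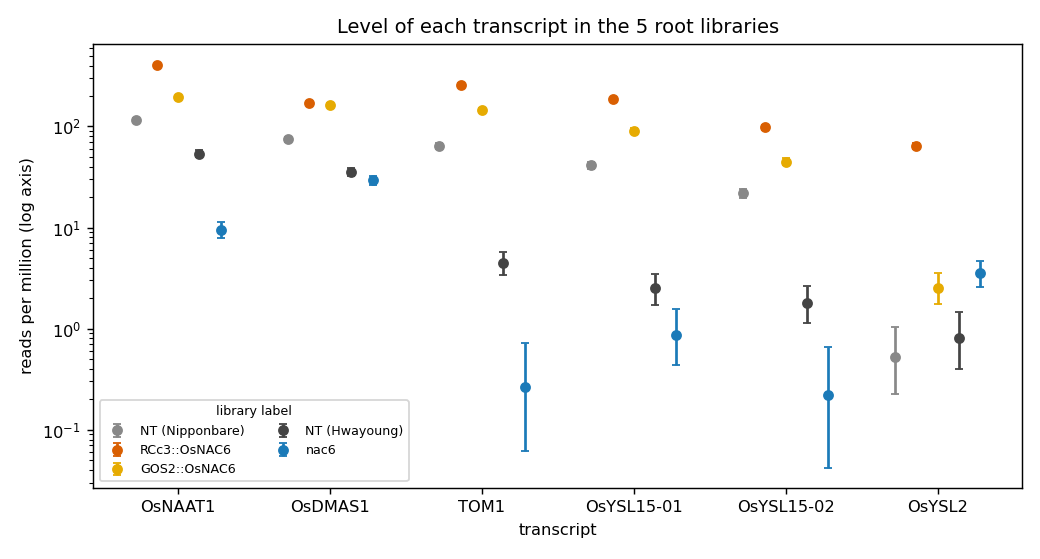
Level of the 6 transcripts in the 5 root libraries in RPM on a log axis, with 95% counting intervals around each point. For OsNAAT1, OsDMAS1, TOM1 and both OsYSL15 transcripts the lowest point is nac6 and the highest is RCc3::OsNAC6, whereas OsYSL2 is lowest in NT (Nipponbare), at 0.522.

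The exporter transcript TOM1 (Os11t0134900-01, locus Os11t0134900, chromosome 11) spanned the widest range of the members that were lower in nac6. It had 1709 reads (63.7 RPM) in NT (Nipponbare), 6676 (257 RPM) in RCc3::OsNAC6, 3478 (145 RPM) in GOS2::OsNAC6, 105 (4.45 RPM) in NT (Hwayoung) and 6 (0.262 RPM) in nac6. The 3 Nipponbare libraries all lay above both Hwayoung libraries, and nac6 was the lowest. The log2 ratio was 1.98 ± 0.05 in RCc3::OsNAC6, and in GOS2::OsNAC6 it was 1.29 ± 0.06. In nac6 it was -3.58 ± 0.62, a level 15.4-fold lower with an interval from 5.28 to 67.1, and 37 of 30767 transcripts had a lower ratio. The width of that interval comes from the 6 reads left in nac6, and with a pseudocount of 5 the log2 ratio was -2.72.

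The transporter of the iron complex, OsYSL15 (Os02t0650300, chromosome 2), was listed as 2 transcripts. Os02t0650300-01 had 1111 reads (41.4 RPM) in NT (Nipponbare), 4792 (184.8 RPM) in RCc3::OsNAC6, 2165 (90.5 RPM) in GOS2::OsNAC6, 59 (2.50 RPM) in NT (Hwayoung) and 20 (0.873 RPM) in nac6. Os02t0650300-02 had 583 (21.7 RPM), 2532 (97.6 RPM), 1076 (45.0 RPM), 42 (1.78 RPM) and 5 reads (0.218 RPM) in the same order. As with TOM1, both were lowest in the Hwayoung libraries and highest in RCc3::OsNAC6. The log2 ratios of -01 and -02 were 2.13 ± 0.06 and 2.13 ± 0.09 for RCc3::OsNAC6, and 1.23 ± 0.07 and 1.15 ± 0.10 for GOS2::OsNAC6. In nac6, -01 was 2.59-fold lower (1.28 to 5.58) and -02 was 7.39-fold lower (2.17 to 40.5), with log2 ratios of -1.29 ± 0.46 and -2.50 ± 0.68. These nac6 intervals overlap widely, and they rest on 20 and 5 reads. With a pseudocount of 5 the ratio of -02 in nac6 was -1.68, and summed over both transcripts the log2 ratio was -1.75.

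The share of OsYSL15 reads given to -02 was 34.4% (exact interval 32.2 to 36.7) in NT (Nipponbare), 34.6% (33.5 to 35.7) in RCc3::OsNAC6 and 33.2% (31.6 to 34.9) in GOS2::OsNAC6. It was 41.6% (31.9 to 51.8) of 101 reads in NT (Hwayoung) and 20% (6.83 to 40.7) of 25 reads in nac6. The intervals of the 3 Nipponbare shares overlapped, and with so few OsYSL15 reads in the Hwayoung libraries no shift in the share was detectable. How the authors counted reads common to both transcripts is not given in the sources used here, so the division between them is uncertain.

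OsYSL2 (Os02t0649900-00, chromosome 2, locus Os02t0649900), the transporter of metal bound to nicotianamine, followed another order. It had 14 reads (0.522 RPM) in NT (Nipponbare), 1667 (64.3 RPM) in RCc3::OsNAC6, 61 (2.55 RPM) in GOS2::OsNAC6, 19 (0.806 RPM) in NT (Hwayoung) and 81 (3.54 RPM) in nac6. The library labelled RCc3::OsNAC6 stood far above the other 4, both controls were low, and nac6 was above its control rather than below it. In RCc3::OsNAC6 the level was 122-fold higher (60.8 to 281), with a log2 ratio of 6.74 ± 0.45, and 2 of 32487 transcripts had a higher ratio. In GOS2::OsNAC6 it was 5.32-fold higher (2.38 to 13.1) and in nac6 4.91-fold higher (2.48 to 10.5), with log2 ratios of 2.24 ± 0.50 and 2.17 ± 0.45. The exact size of all 3 rests on the 14 and 19 control reads: with count column 2 of the libraries alone, an alternative added after the data were seen, the log2 ratio was 7.70 in RCc3::OsNAC6 and 3.24 in GOS2::OsNAC6, and with column 1 alone it was 6.16 and 1.61. With a pseudocount of 5 it was 6.15 and 1.77.

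The order of the libraries by RPM was nac6, NT (Hwayoung), NT (Nipponbare), GOS2::OsNAC6 and RCc3::OsNAC6, from lowest to highest, for OsNAAT1, OsDMAS1, TOM1 and both OsYSL15 transcripts. For OsYSL2 it was NT (Nipponbare), NT (Hwayoung), GOS2::OsNAC6, nac6 and RCc3::OsNAC6. On this scale, neighbours in these orders differed beyond counting error except for OsDMAS1 in GOS2::OsNAC6 and RCc3::OsNAC6 and, for OsYSL2, both controls and the pair of GOS2::OsNAC6 and nac6. OsDMAS1 in nac6 and NT (Hwayoung) differed so on this scale only: by normalized counts within the table the fold was 0.921 (0.804 to 1.06). Normalized counts also reversed the order of its overexpressor libraries, at 2.21-fold for RCc3::OsNAC6 and 2.31-fold for GOS2::OsNAC6 over NT (Nipponbare). The neighbours NT (Hwayoung) and NT (Nipponbare) come from different tables, and their RPM values were scaled by total reads alone.

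The 2 controls themselves differed. TOM1 was 14.3-fold higher (11.0 to 18.9) in NT (Nipponbare) than in NT (Hwayoung), OsYSL15-01 was 16.5-fold higher (11.7 to 24.2) and OsYSL15-02 was 12.2-fold higher (8.04 to 19.3). OsNAAT1 was 2.16-fold higher (1.98 to 2.36) and OsDMAS1 2.12-fold higher (1.91 to 2.37). OsYSL2 had a ratio of 0.647, with an interval from 0.224 to 1.78. The exporter and the uptake transporter of deoxymugineic acid were thus further apart between the controls than the 2 enzymes that make it. Of 32205 transcripts with enough reads, 16.4% were at least 2-fold higher in NT (Nipponbare), 8.24% at least 2-fold lower and 4.62% at least 4-fold higher, and the median log2 difference over all of them was 0.22. Cultivar and library cannot be told apart here, and for TOM1 and OsYSL15 the nac6 comparison starts from a control with few reads.

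The 2 overexpressor libraries were also set side by side. RCc3::OsNAC6 over GOS2::OsNAC6 was 2.07 (1.98 to 2.17) for OsNAAT1, 2.04 (1.91 to 2.19) and 2.17 (1.97 to 2.39) for OsYSL15-01 and -02, and 1.77 (1.68 to 1.87) for TOM1. For OsDMAS1 it was 1.05 (0.986 to 1.11) and for OsYSL2 it was 25.2 (18.0 to 36.5). Of all 32208 transcripts with enough reads, 7.18% were at least 2-fold above GOS2::OsNAC6 in RCc3::OsNAC6 and 4.69% at least 2-fold below, and the median log2 difference was 0.13. OsDMAS1 was therefore the one member that stood within counting error between the root promoter and the whole-plant promoter libraries.

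Other genes of the pathway were read from a list of 22 loci: nicotianamine synthases, aminotransferase-like genes, exporters, yellow stripe-like transporters, iron uptake transporters and regulators. In the library labelled RCc3::OsNAC6, 9 of 22 were at least 2-fold higher and 1 was 2-fold lower, with a median log2 ratio of 0.97, beside 4.47% higher and 6.03% lower over all transcripts. In that labelled GOS2::OsNAC6, 4 were higher and 1 lower, with a median of 0.40, beside 1.83% and 2.00%. In that labelled nac6, 0 of 21 with a ratio were higher and 7 were lower, with a median of -0.43, beside 6.30% and 3.65%. The medians over all transcripts were 0.01, -0.01 and -0.01, and no member of the list had replicate libraries. The study also measured target genes by qRT-PCR with biological replicates. Its primers included OsNAS1 and OsNAS2, and those measurements were not analysed here.

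The 3 nicotianamine synthase transcripts, whose product is the substrate of OsNAAT1, were at least 2-fold higher in both overexpressor libraries. OsNAS1 (Os03t0307300-01) had 5695, 21064 and 22856 reads in NT (Nipponbare), RCc3::OsNAC6 and GOS2::OsNAC6, and 1034 and 136 in NT (Hwayoung) and nac6. OsNAS2 (Os03t0307200-01) had 7829, 25783, 28253, 1491 and 153 reads in the same order. OsNAS3 (Os07t0689600-01) had 518, 3322, 4122, 448 and 317. OsNAS1 and OsNAS2 were lower in nac6, with log2 ratios of -2.71 ± 0.17 and -3.06 ± 0.16, while OsNAS3 had -0.30 ± 0.14. OsNAS1 and OsNAS2 are near-identical, so reads may be divided between them. All 3 had more reads in GOS2::OsNAC6 than in RCc3::OsNAC6, the reverse of OsNAAT1, TOM1, OsYSL15 and OsYSL2.

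Of the 3 other exporter loci, ENA1 (Os11t0151500-01), which exports nicotianamine, had 184, 624, 293, 48 and 19 reads from NT (Nipponbare) to nac6, with log2 ratios of 1.77 ± 0.16, 0.93 ± 0.18 and -1.07 ± 0.48, the last being -0.85 with a pseudocount of 5. TOM2 (Os11t0135000-01), a relative of TOM1, had 59, 87, 123, 38 and 25 reads and was at least 2-fold higher in GOS2::OsNAC6 alone, at 1.30 ± 0.29. TOM1 thus had a larger ratio than its relative in RCc3::OsNAC6, where TOM2 had 0.57 ± 0.31. TOM3 lay within 2-fold in all comparisons. Among the yellow stripe-like loci with the most reads, Os04t0542800-01 had 0.96 ± 0.07, 0.18 ± 0.08 and 0.33 ± 0.07, and Os04t0390500-02 had -0.37 ± 0.07, 0.41 ± 0.07 and -0.19 ± 0.09. Neither reached a 2-fold difference, unlike OsYSL15 and OsYSL2. Os04t0542800-01 in RCc3::OsNAC6 was within counting error of 2-fold, however, and library totals put it at 0.995.

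The transporters that take up free iron were higher by at least 2-fold in RCc3::OsNAC6 but not in GOS2::OsNAC6, a difference between libraries that was not tested. OsIRT1 (Os03t0667500-01), a ferrous iron transporter, had log2 ratios of 1.44 ± 0.06, 0.84 ± 0.06 and -0.43 ± 0.16. OsIRT2 (Os03t0667300-00) had 1.50 ± 0.07, 0.64 ± 0.08 and -1.49 ± 0.12. OsNRAMP1 (Os07t0258400-01), a transporter of iron and cadmium, had 1.07 ± 0.05, 0.63 ± 0.06 and -1.43 ± 0.20. In nac6, OsIRT2 and OsNRAMP1 were thus at least 2-fold lower and OsIRT1 was not.

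Among the regulators, OsIRO2 (Os01t0952800-01), a bHLH activator of deoxymugineic acid genes under iron deficiency, had 4158, 8098, 5655, 1245 and 351 reads. Its log2 ratios of 0.98 ± 0.04 and 0.71 ± 0.04 fell short of 2-fold in the overexpressor libraries, though scaling by library totals put the first at 1.01, and it was 2-fold lower in nac6 at -1.62 ± 0.12. OsHRZ2 (Os05t0551000-01), a ubiquitin ligase that represses the iron deficiency response, was 2-fold higher in RCc3::OsNAC6 at 1.05 ± 0.12, with 0.40 ± 0.14 and 0.13 ± 0.08 elsewhere, and at 0.88 from count column 1 alone. OsIRO3, a bHLH repressor of the response, OsHRZ1, and the transcription factor genes IDEF1 and IDEF2 lay within 2-fold in the 3 comparisons. OsHRZ1 in RCc3::OsNAC6 was near that limit: library totals put it at 1.00, count column 1 alone at 1.09 and column 2 alone at 0.86. The aminotransferase-like loci did not follow OsNAAT1 as a group: Os11t0644800-00 was 2-fold lower in all 3 comparisons, at -2.41 ± 0.27, -1.16 ± 0.20 and -1.10 ± 0.47, and Os11t0552000-01 was 2-fold higher in RCc3::OsNAC6 only, at 1.09 ± 0.21. Single count columns took the last call of Os11t0644800-00 to -0.51, its GOS2::OsNAC6 call to -0.68 and the call of Os11t0552000-01 to 0.66.

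**Figure D3:**
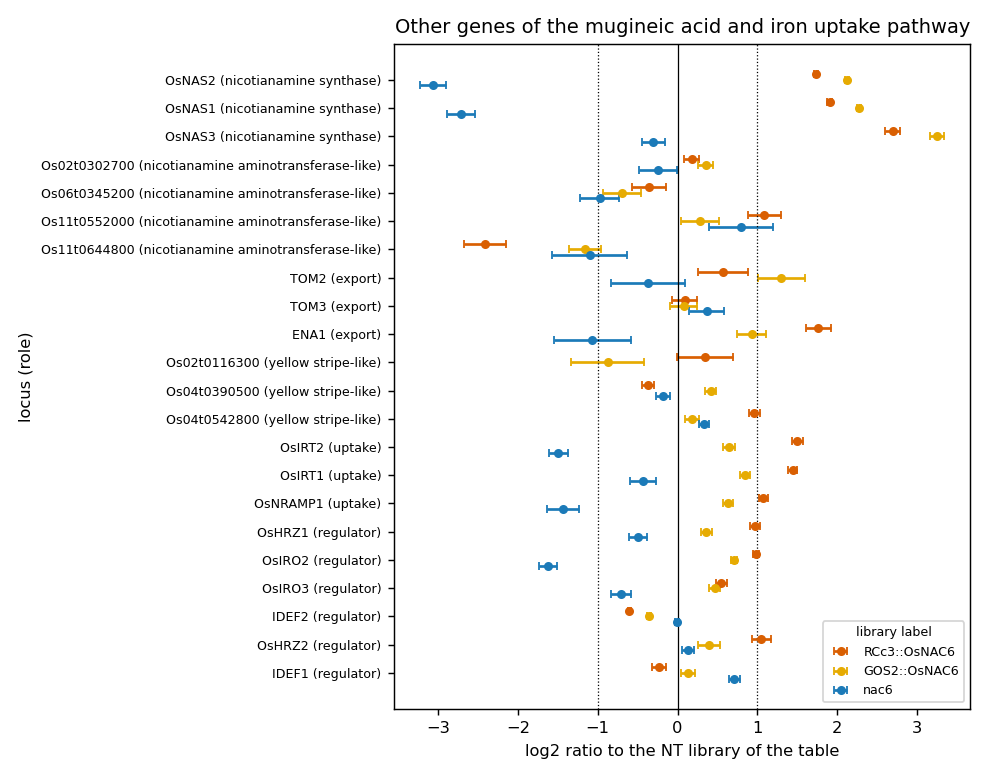
Log2 ratio to the NT library of the same table (horizontal axis) for the 22 other loci of the pathway, with counting-error SE and dotted lines at 2-fold. The 3 nicotianamine synthases lie furthest right in GOS2::OsNAC6, and OsNAS1 and OsNAS2 lie furthest left in nac6, at -2.71 and -3.06.

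The loci next to each gene by locus number were read as well, 4 on each side, which gave 32 other loci. Of 25 with a ratio, 2 were at least 2-fold higher in RCc3::OsNAC6 and 0 lower, and 3 were higher in GOS2::OsNAC6 and 0 lower, beside 4.47% and 1.83% higher over all transcripts. Of 24 in nac6, 1 was higher (Os02t0305950-00, near OsNAAT1) and 2 were lower (Os11t0134700-01, near TOM1, and Os02t0649400-00, near OsYSL2), beside 6.30% and 3.65%. With so few loci, nothing is read from these counts. OsYSL2 and OsYSL15 are themselves neighbours, with 1 snoRNA gene between them in the RefSeq gene order of another assembly, ASM3414082v1. In nac6 this pair had ratios of opposite sign, and in RCc3::OsNAC6 OsYSL2 had 6.74 where OsYSL15-01 had 2.13.

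The neighbours higher in both overexpressor libraries were hypothetical genes directly after TOM1 and OsDMAS1. Os11t0134950-00 had 119, 459, 232, 4 and 0 reads from NT (Nipponbare) to nac6, and its reads were 6.96%, 6.88% and 6.67% of those of TOM1 in the 3 Nipponbare libraries. The 0 in nac6 allows up to 3 read pairs, or 6 reads. Os03t0237201-00 had 748, 1533, 1468, 325 and 245 reads, which were between 35.0% and 39.1% of those of OsDMAS1 in all 5 libraries. The counting intervals of each share overlapped between all pairs of libraries. Whether these loci overlap TOM1 and OsDMAS1 or lie on the other strand is not known from the tables, so their reads may not be independent of the genes.

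**Figure D4:**
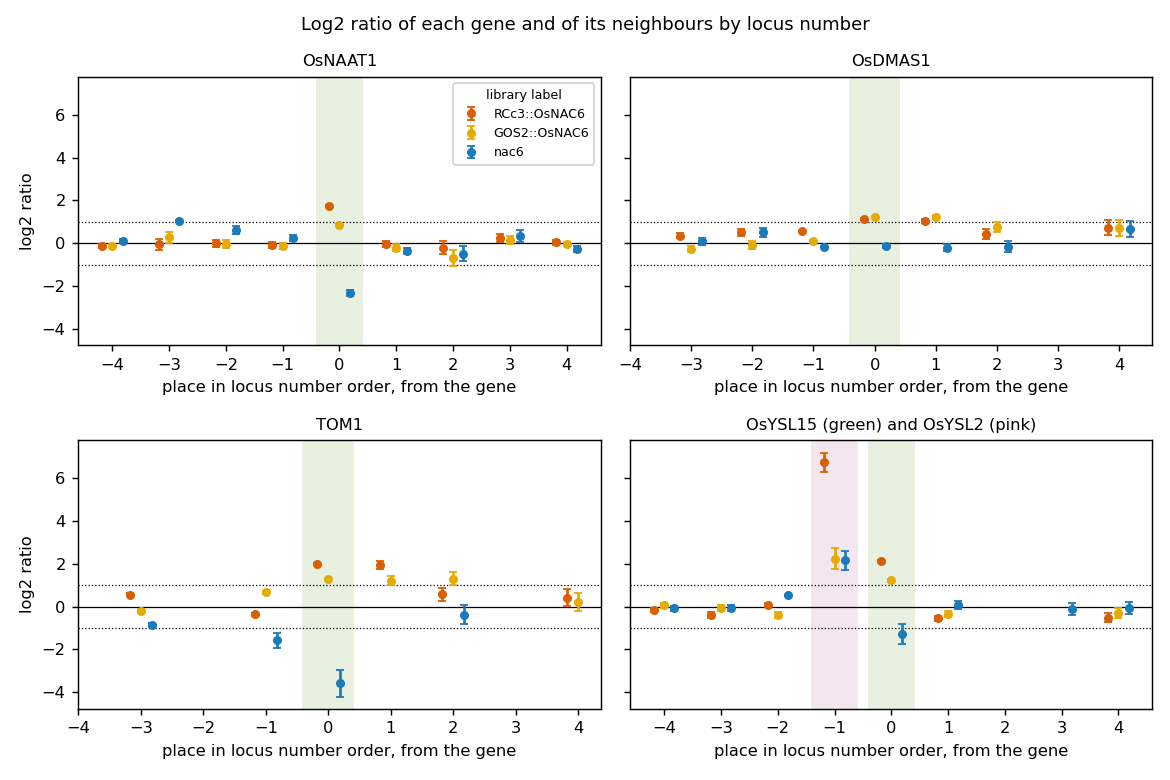
Log2 ratio (vertical axis) of OsNAAT1, OsDMAS1, TOM1 and OsYSL15 (green, place 0), of OsYSL2 (pink) and of the 4 loci on each side in locus number order, with counting-error SE. Places without a point had too few reads, and the dotted lines mark 2-fold. Apart from OsYSL2, the only neighbours above 2-fold in both overexpressor libraries are those at place 1 beside OsDMAS1 and TOM1.

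The transcripts of other loci with the 3 log2 ratios nearest to each gene, by Euclidean distance over the 3 comparisons, were listed among transcripts with at least 100 reads in a library. For OsNAAT1 these were Os11t0262600-00 (conserved hypothetical, distance 0.264), OsYSL15-02 (0.507) and the peptide transporter-like Os01t0871600-01 (0.749). For TOM1 they were Os12t0282000-01 (conserved hypothetical, 0.615), OsNAS2 (1.01) and OsYSL15-02 (1.10). OsNAAT1 and TOM1 thus each had OsYSL15-02 among their 3 nearest, while OsYSL15-01 was in neither list. The nac6 ratios of OsYSL15-02 and TOM1 rest on 5 and 6 reads in nac6, so these ranks are uncertain.

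For OsYSL15-01 the nearest were Os01t0444100-00 (conserved hypothetical, 0.252), Os04t0675000-02 (hypothetical, 0.274) and Os05t0410900-02 (peptide transporter-like, 0.373). For OsDMAS1 they were Os02t0714600-01 (ribose-phosphate pyrophosphokinase, 0.0814), Os03t0739700-01 (0.0961) and Os01t0871400-01 (0.109). OsYSL2 had no close match, with its nearest, Os01t0605700-01, at a distance of 2.77, and its next, Os05t0502000-01 and Os04t0330301-00, at 3.29 and 3.49. These distances describe 3 ratios from 5 libraries, with 1 control shared.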

How the data were processed

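Roots of 5 groups were sequenced, 1 strand-specific library each, per the labels. The authors deposited 3 tables, each with the normalized count (a signal) of 2 libraries, divided by size factors within that table. The tables also hold the fold changes and p-values of the authors' own comparisons, which were not used. The genome build IRGSP 1.0 comes from the submitters' processing notes, and the aligner, counter and annotation release are not given in the sources used here. Column headers give libraries as numbers from 1 to 5, and these were matched to the sample numbers in the labels' descriptions.

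From its digits, each deposited value was taken as the mean of 2 count columns. What these columns are is not given in the sources used here, and they were treated as repeat counts of 1 library. Each value was split into whole reads (tolerance 1.5 units of the last digit) for 100% of values above 0. NT (Nipponbare) gave identical reads in both of its tables for 39372 of 39372 transcripts. RPM are reads scaled to the library total. Ratios used a pseudocount of 1 and a pair mean of at least 10 normalized counts, with a 2-fold threshold and no test of groups. SE used recovered reads with a variance factor of 1.77, taken from the spread between the count columns. Exact 95% intervals of levels and folds used reads divided by that factor. Those of shares used undivided reads and are thus narrower. A 2-sided exact binomial test with Benjamini-Hochberg adjustment compared 2 libraries, not genotypes. It used reads halved, since both mates of a pair appeared to be counted. Scripts (Python 3.11.15, numpy 2.4.6, pandas 2.3.3, scipy 1.17.1) were tested on simulated data.

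Genes named are the members, OsNAC6, listed pathway loci past 2-fold in a comparison, the 2 most abundant yellow stripe-like loci, and the 3 nearest transcripts of each gene, with those outside this rule named as single cases. Members and lists were chosen with earlier results of these data known. Alternatives were no filter, a pair mean of 50, pseudocounts of 0.1 and 5, a 4-fold threshold, library totals, locus sums, the binomial test and, added after the data were seen, single count columns.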

Additional observations from a re-analysis of the deposited data

How the results depend on the processing

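With a pair mean of at least 50, the counts for nac6 became 0 transcripts higher and 1 lower, OsNAAT1, because TOM1, OsYSL2 and both OsYSL15 transcripts fell below that mean, and the GOS2::OsNAC6 count went from 5 to 4. That filter left only OsNAAT1 and OsDMAS1 in nac6. Over all transcripts it gave 1115 higher and 467 lower of 22228 in nac6, and 249 higher of 23854 in GOS2::OsNAC6. With a 4-fold threshold, 3 transcripts were higher in RCc3::OsNAC6 and 1 in GOS2::OsNAC6. Of 108 log2 ratios of the 6 transcripts under alternatives, 105 stayed within their 95% counting error, none changed sign, and 3 moved further: OsYSL2 with count column 2 alone (7.70 in RCc3::OsNAC6 and 3.24 in GOS2::OsNAC6) and OsNAAT1 in GOS2::OsNAC6 under library totals (0.74). Within that error, a pseudocount of 5 took TOM1 in nac6 from -3.58 to -2.72, OsYSL15-02 in nac6 from -2.50 to -1.68 and OsYSL2 in RCc3::OsNAC6 from 6.74 to 6.15, and column 1 alone took OsYSL2 in GOS2::OsNAC6 from 2.24 to 1.61. The alternatives reuse the same reads, and the counting error is widest where reads are few, so the count of 105 is a description only. A larger pseudocount shrinks a ratio where 1 library has few reads, here 6, 5 and 14. Why the count columns and the scaling by totals gave other values was not tested. Library totals shifted the median of all transcripts to -0.11 in GOS2::OsNAC6 and -0.16 in nac6, and the split of all transcripts became 420 higher and 870 lower in GOS2::OsNAC6, against 586 and 641, and 1440 and 1699 in nac6, against 1938 and 1123. The binomial test called 13956, 9022 and 12161 transcripts (43.0%, 28.2% and 39.5%) in RCc3::OsNAC6, GOS2::OsNAC6 and nac6, and 6, 6 and 5 of the 6 members, OsDMAS1 in nac6 being the exception, against 1452 and 1959, 586 and 641, and 1938 and 1123 transcripts higher and lower past 2-fold. No paired analysis was possible because each group had 1 library. TOM1, OsYSL15 and OsYSL2 had few reads in the Hwayoung libraries, and OsYSL2 had fewest in NT (Nipponbare), at 14. The Hwayoung libraries held 23573081 and 22909719 reads in total, near the 23932366 of GOS2::OsNAC6. In them, 3 read pairs, the limit that a count of 0 allows, correspond to 0.255 and 0.262 RPM. TOM1 in nac6, at 6 reads, was at this limit. OsYSL15-02 in nac6, at 5 reads (0.218 RPM), was below it.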
